A study of Homo sapiens with 6 samples.

Results

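Beta-catenin (gene CTNNB1), the catenins around it and the cadherins they bind were followed here in MM1.S, an established human multiple myeloma cell line, after an shRNA against beta-catenin. The 10 genes were CTNNB1, JUP, CTNNA1, CTNND1, CTNNAL1, CTNNBL1, CTNNBIP1, PKP4, CDH1 and CDH2, and every probe set that the array annotation pairs with one of them was taken. A probe set is the group of short array probes that reads 1 transcript region. This gave 25 of the 54613 probe sets that are not Affymetrix controls. Of these 25, 21 carry 1 gene symbol, and the 4 of CTNND1 carry that symbol together with TMX2-CTNND1, a read-through transcript of CTNND1 and the neighbouring gene TMX2, so their values stand for the pair. Per the labels, the control cells received a lentivirus with a control shRNA and the knockdown cells one with a beta-catenin shRNA. Both groups were sorted for GFP and grown as 3 cultures, each read on 1 one-colour array. The titles name the vector pKLO in both groups and call the 3 arrays of each group biological replicates. No separate infections, and neither the sequence nor the number of the hairpins, are described in the labels used here. The p-values therefore measure the spread between cultures that may be sister cultures, a spread that may be technical.

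A cadherin spans the cell membrane and binds a cadherin of the next cell. Inside the cell it holds beta-catenin or its close relative plakoglobin, each of which binds alpha-catenin and through it actin, while p120-catenin sits on another stretch of the cadherin tail and keeps it at the membrane. Beta-catenin that is not held there is normally destroyed. When a Wnt signal stops its destruction, it enters the nucleus and activates genes with TCF/LEF factors. Myeloma cells are plasma cells, which grow with few firm cell junctions, and N-cadherin is known from a part of myelomas.

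All values are on the deposited log2 scale, which has a floor at 4, the log2 of 16, so that a level is log2(signal + 16), a form inferred from that floor. A change is knockdown minus control on that scale, and "called" means an adjusted p under 0.05 in limma over all 54613 probe sets. The offset of 16 makes changes of dim probe sets look smaller than they are in signal. Control array medians lay between 5.4384 and 5.5016 and knockdown array medians between 5.5019 and 5.5351. Every knockdown median was thus above every control median, by a narrow gap (exact two-sided permutation p = 0.1, the smallest possible with 3 against 3 arrays). The correlation r over all probe sets was 0.945 to 0.953 between groups and 0.980 to 0.990 within them. As a sign of RNA quality, the ACTB control for the 3' end exceeded that for the 5' end by 0.53 to 0.89 on control arrays and by 0.54 to 0.64 on knockdown arrays (exact two-sided permutation p = 0.7). Defining plasma cell genes were present: all 10 on a list with SDC1, PRDM1, XBP1 and TNFRSF17 lay above the median probe set, and 9 of them above 8. The summed plasma cell signal without the offset ran from 11036 to 11427 in control and from 11722 to 12142 in knockdown arrays, without overlap. The genes of this list did not move together. In limma over genes, CD38, PRDM1, SLAMF7 and MZB1 were higher in the knockdown (adjusted p under 0.05). SDC1, IRF4 and TNFRSF17 were lower (adjusted p under 0.05), and XBP1, JCHAIN and POU2AF1 did not reach that threshold. The epithelial list had 8 of 12 genes above the median probe set. In the controls its levels ran from EPCAM at 4.85 ± 0.63 to KRT7 at 7.64 ± 0.15 and PAX8 at 8.16 ± 0.08 (SD, n = 3 each). The sum of the epithelial list ran from 816 to 821 in control and from 787 to 857 in knockdown arrays. Summed myeloid markers (4 of 8 genes with a probe set above the median, 245 to 268 against 283 to 312) and B cell markers (3 of 7, 421 to 434 against 453 to 472) were also higher in the knockdown without overlap. The part of these 3 lists in the results below was not tested. The fibroblast list (8 of 10; 1359 to 1473 against 1361 to 1426), the T and NK cell list (3 of 9; 223 to 243 against 226 to 257) and the erythroid list (1 of 3; 440 to 556 against 551 to 570) overlapped between the groups.

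Of the 25 probe sets, 4 were called higher in knockdown than in control cultures, 4 were called lower and 17 were not called. The 8 calls are 32.0% of the 25, where 23.2% of all probe sets were called (13.3% higher and 9.95% lower). Dim probe sets were called less often in this table: 38.3% of those at or above the median level of 5.49 were called and 8.19% of those below it. Of the members, 20 lay at or above that level and held all 8 calls, a share of 40.0%, and 5 lay below it with 0 calls, of which 1 had an unadjusted p under 0.05 in limma. JUP, 1 of the 8, reached the level only through the group where it was higher. The share of 40.0% was close to the 38.3% of all probe sets above the same level. The groups did not overlap for 13 of the 25, against 37.2% of all probe sets. This share also depended on level. At or above the median level the groups did not overlap for 12 of 20 members and 14405 of 27307 probe sets. Below it this held for 1 of 5 members and 5888 of 27306 probe sets. The members' median change was −0.05 and that of all probe sets 0.04. The called members fell into 2 directions: CTNNB1 by its brightest probe set, PKP4 and CTNNBL1 were lower, while JUP, CDH2 and a dimmer CTNNB1 probe set were higher. Centring each array on its median moved the split of the members to 3 higher and 6 lower, and that of the whole table from 7259 higher and 5434 lower to 6217 and 6964.

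**Figure D1:**
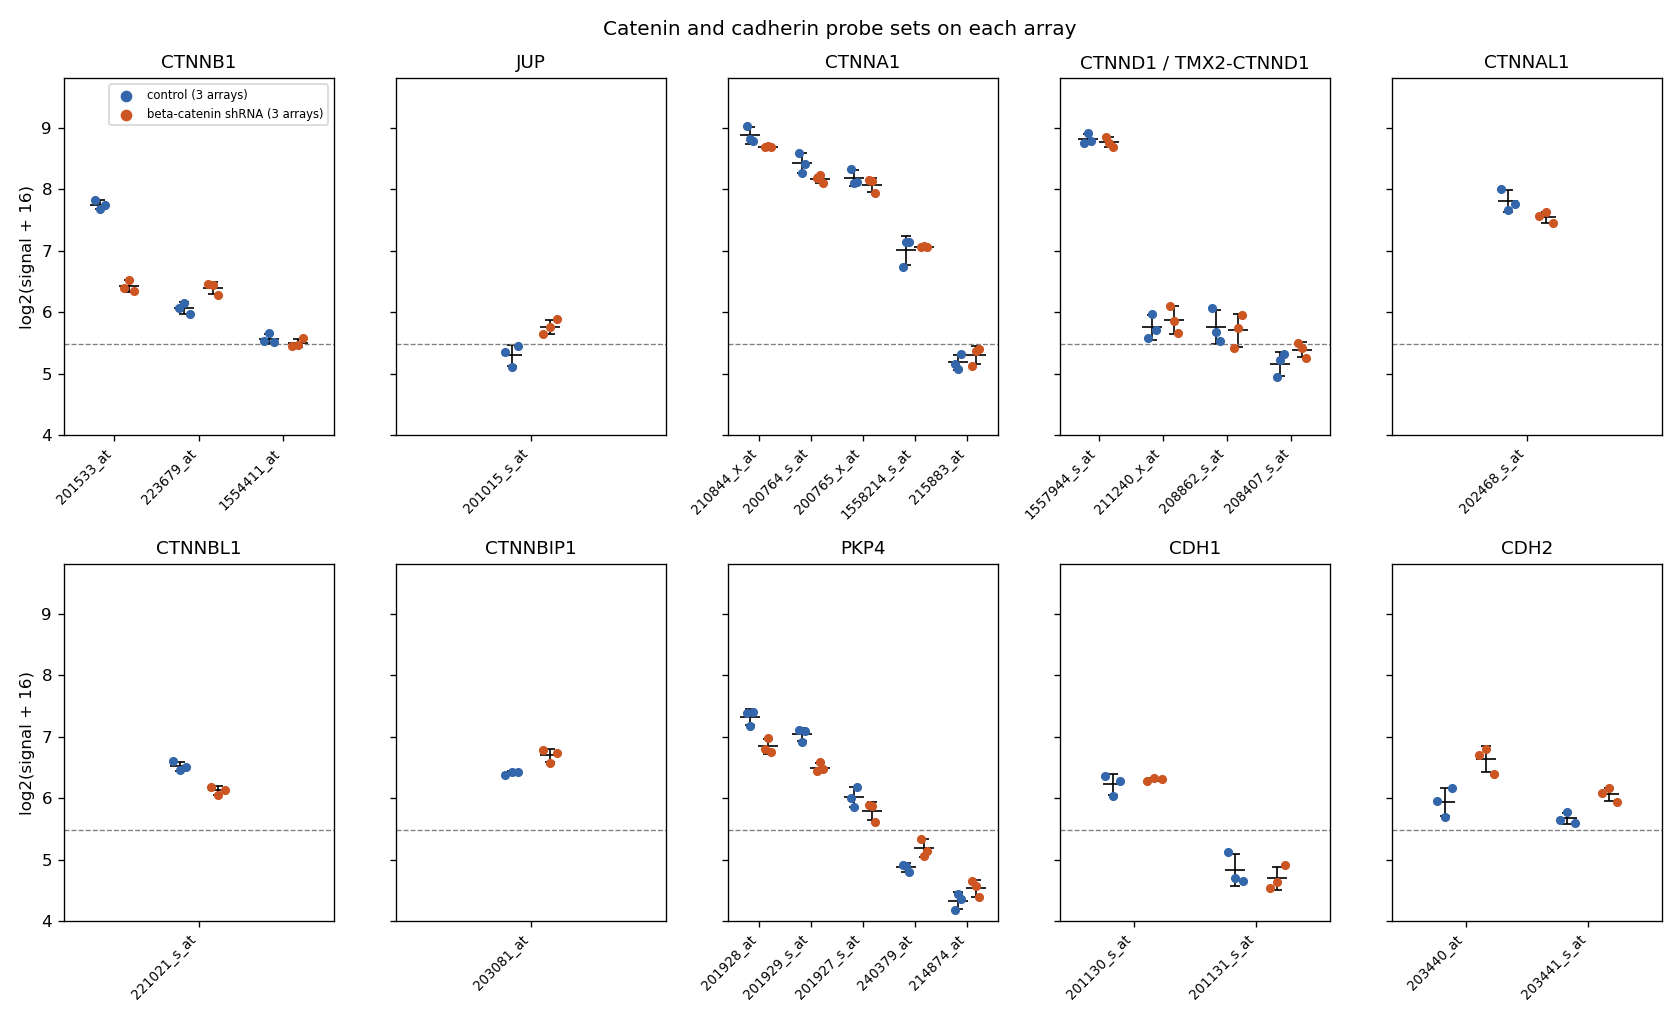
Level of every member probe set, log2(signal + 16), on each of the 3 control (blue) and 3 beta-catenin shRNA (orange) arrays, 1 panel per gene, with bars for the mean and SD of each group and a dashed line at the median level of all probe sets (5.49). The brightest CTNNB1 probe set drops from 7.67 to 7.82 in the controls to 6.34 to 6.53 in the knockdown, while the values of CTNND1 and CDH1 probe sets overlap between the groups.

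Beta-catenin itself was read by 3 probe sets, which did not move alike. The brightest, 201533_at, read 7.82, 7.67 and 7.75 on the control arrays and 6.39, 6.53 and 6.34 on the knockdown arrays. All 3 knockdown cultures lay more than 1 log2 unit below the lowest control. The means were 7.75 ± 0.08 and 6.42 ± 0.10 (SD, n = 3 each), a change of −1.33 (SE 0.10, 95% interval −1.54 to −1.12; limma, adjusted p = 2.27e-07). On this scale 39.8% of the control level was left. With the offset taken off, the mean signal went from 199 to 69.7, which is 35.0% of the control. This change was larger in size than 98.8% of all changes in the table.

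The next CTNNB1 probe set, 223679_at, read 6.07, 6.15 and 5.97 in the controls and 6.46, 6.44 and 6.28 in the knockdown. Here the knockdown cultures were the higher ones and the groups again did not overlap. The change was 0.33 (SE 0.11, 95% interval 0.10 to 0.56; limma, adjusted p = 0.0390). This call ended under each between-array scaling tried (adjusted p = 0.0758 to 0.0812), while the direction stayed, and it also ended without control replicate 1, control replicate 3, knockdown replicate 1 or knockdown replicate 2 (limma, adjusted p = 0.0717, 0.125, 0.157 and 0.130) and in the fit without moderation (adjusted p = 0.0800). The third, 1554411_at, read 5.53, 5.66 and 5.51 in the controls and 5.45, 5.47 and 5.57 in the knockdown, so the groups overlapped. Its change was −0.07 with a 95% interval of −0.31 to 0.17, which does not reach the fall seen by 201533_at. Within each array, 201533_at stood above 223679_at by 1.68 ± 0.14 in the controls and by 0.02 ± 0.09 in the knockdown (SD, n = 3 each), a shift of −1.66. Against 1554411_at the shift was −1.26. Both shifts separated the groups fully (exact two-sided permutation p = 0.1 each, the smallest 3 against 3 arrays can give; adjusted p = 0.214 over the 15 pairs of probe sets compared). Such opposite calls were uncommon. Of 1182 genes with several bright probe sets whose brightest was called lower, 68 (5.75%) had another bright one called higher, and 757 (64%) had another called lower. The stretch of CTNNB1 that each of the 3 detects was not looked up here.

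Plakoglobin, encoded by JUP, is the catenin closest to beta-catenin and takes its place on cadherins, also in desmosomes. Its single probe set, 201015_s_at, read 5.35, 5.11 and 5.44 in the controls and 5.64, 5.75 and 5.88 in the knockdown. Every knockdown culture was above every control. JUP rose by 0.46 (SE 0.12, 95% interval 0.19 to 0.73; limma, adjusted p = 0.0148). It is a dim signal: the control mean of 5.30 lies below the median of the table and the knockdown mean of 5.76 above it, so JUP reached that level only through the knockdown arrays. The signal was 23.6 in control and 38.3 in knockdown cultures once the offset is taken off. The rise was not called without control replicate 2, knockdown replicate 2 or knockdown replicate 3 (limma, adjusted p = 0.0565, 0.0522 and 0.0653). Its call also ended in the fit without moderation (adjusted p = 0.0957) and in the limma test against a 1.2-fold change (adjusted p = 0.432).

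N-cadherin, encoded by CDH2, is the cadherin of nerve, muscle and mesenchymal cells. It was higher in the knockdown on both of its probe sets. The first, 203440_at, read 5.96, 5.70 and 6.16 in the controls and 6.70, 6.80 and 6.40 in the knockdown. The second, 203441_s_at, read 5.65, 5.78 and 5.60 against 6.08, 6.16 and 5.95. Neither pair of groups overlapped. CDH2 rose by 0.69 on the first (SE 0.14, 95% interval 0.40 to 0.99; limma, adjusted p = 0.00203) and by 0.39 on the second (SE 0.11, 95% interval 0.15 to 0.63; limma, adjusted p = 0.0208). The call of the second ended without control replicate 1 or 3 or knockdown replicate 1 or 2 (limma, adjusted p = 0.0547, 0.0667, 0.0755 and 0.103). It also ended in the fit without moderation (adjusted p = 0.0612) and in the limma test against a 1.2-fold change (adjusted p = 0.741). The call of the first ended only in the fit without moderation (adjusted p = 0.0945), so neither CDH2 call stood in that fit.

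E-cadherin, encoded by CDH1, is the cadherin of epithelia. Its probe set 201130_s_at read 6.36, 6.04 and 6.28 in the controls and 6.27, 6.33 and 6.31 in the knockdown. The knockdown values lay inside the range of the controls. The change was 0.08 with a 95% interval of −0.16 to 0.32 (limma, adjusted p = 0.686). A dim second probe set, 201131_s_at, gave −0.14, from −0.46 to 0.19. The intervals leave room for small changes of CDH1 in either direction. Whether CDH2 and CDH1 changed by different amounts was not tested.

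Alpha-catenin, encoded by CTNNA1, links beta-catenin or plakoglobin to actin and was bright, with 3 of its 5 probe sets above 8 in both groups. The brightest, 210844_x_at, read 9.03, 8.81 and 8.78 in the controls and 8.68, 8.70 and 8.69 in the knockdown. The next, 200764_s_at, read 8.59, 8.27 and 8.40 against 8.18, 8.23 and 8.10. On both, all knockdown cultures lay a little below all controls. The changes were −0.18 (95% interval −0.36 to −0.01; limma, adjusted p = 0.133) and −0.25 (−0.45 to −0.05; adjusted p = 0.0707), neither called. The probe set 200764_s_at was called lower under each of the 3 between-array scalings (adjusted p = 0.0186 to 0.0276), with filters at the median and the 75th percentile (limma, adjusted p = 0.0395 and 0.0255) and without control replicate 2 (adjusted p = 0.0233). The other CTNNA1 probe sets changed by −0.11, 0.06 and 0.12 with overlapping groups. An _x_at probe set can also bind related transcripts, so the CTNNA1 values of 210844_x_at and 200765_x_at are less certain.

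Alpha-catulin, encoded by CTNNAL1, is a relative of alpha-catenin with its own signalling partners. It read 8.0, 7.65 and 7.75 in the controls and 7.56, 7.63 and 7.45 in the knockdown on 202468_s_at. The groups are separated by a narrow gap between 7.63 and 7.65. The change of −0.26 (SE 0.10, 95% interval −0.48 to −0.04) was not called (limma, adjusted p = 0.0938), and it was called under each of the 3 between-array scalings (adjusted p = 0.0311 to 0.0365), with the filter at the 75th percentile (limma, adjusted p = 0.0322) and without control replicate 2 (adjusted p = 0.0403).

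The p120 branch of the family is represented by CTNND1 and PKP4. The probe sets that CTNND1 shares with TMX2-CTNND1 did not pass the test. Their brightest, 1557944_s_at, read 8.75, 8.91 and 8.78 in the controls and 8.85, 8.76 and 8.69 in the knockdown. The groups overlapped, and the change was −0.05 with a 95% interval of −0.22 to 0.12 (limma, adjusted p = 0.719), so that a change past 0.22 in size lay outside it. The 3 dimmer ones changed by 0.12, −0.05 and 0.23, and none was called.

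PKP4, also called p0071, is an armadillo protein of this branch that is found at junctions and at the midbody of dividing cells. Its brightest probe set, 201928_at, read 7.38, 7.17 and 7.40 in the controls and 6.80, 6.98 and 6.75 in the knockdown. The next, 201929_s_at, read 7.11, 6.91 and 7.09 against 6.43, 6.58 and 6.47. Both groups of 3 knockdown cultures lay below all controls. PKP4 fell by 0.47 on the first (SE 0.10; limma, adjusted p = 0.00451) and by 0.54 on the second (SE 0.10; limma, adjusted p = 0.00121). The call of the first ended in the fit without moderation (adjusted p = 0.0655). Both calls ended in the limma test against a 1.2-fold change (adjusted p = 0.263 and 0.0781). The third, 201927_s_at, gave −0.23 with overlapping groups (95% interval −0.49 to 0.04). The 2 dimmest probe sets, 240379_at and 214874_at, gave 0.31 and 0.20. Both lay below the median of the table in both groups and neither was called (limma, adjusted p = 0.0840 and 0.325). Within arrays, 201928_at shifted by −0.78 against 240379_at and by −0.67 against 214874_at, with no overlap of the groups (exact two-sided permutation p = 0.1 each, the smallest possible; adjusted p = 0.214 over 15 pairs).

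CTNNBL1 and CTNNBIP1 carry the catenin name for different reasons. CTNNBL1 has armadillo-like repeats and belongs to the splicing machinery around PRPF19 and CDC5L. It read 6.60, 6.46 and 6.50 in the controls and 6.19, 6.05 and 6.14 in the knockdown, with a wide gap between the groups. CTNNBL1 fell by 0.39 (SE 0.10, 95% interval −0.61 to −0.18; limma, adjusted p = 0.0114). This call ended without knockdown replicate 2 (limma, adjusted p = 0.0581) and in the limma test against a 1.2-fold change (adjusted p = 0.617). CTNNBIP1, or ICAT, is a small inhibitor that keeps beta-catenin from TCF/LEF factors. It read 6.38, 6.43 and 6.43 in the controls and 6.78, 6.58 and 6.74 in the knockdown. All 3 knockdown cultures were higher, but the change of 0.29 (SE 0.10, 95% interval 0.07 to 0.50) missed the threshold (limma, adjusted p = 0.0557) and passed it when dim probe sets were left out (limma, adjusted p = 0.0331 at the median filter) or with an offset of 64 (adjusted p = 0.0486).

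**Figure D2:**
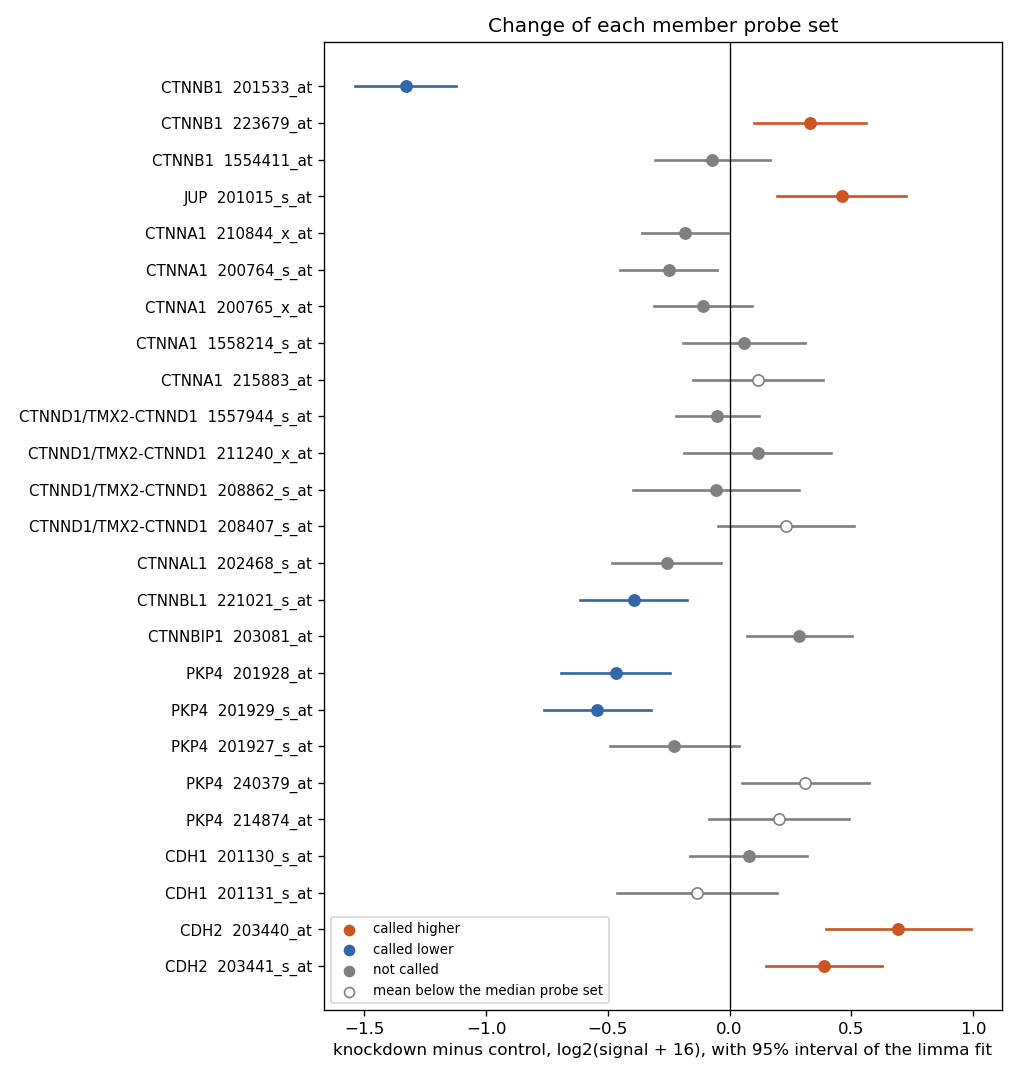
Knockdown minus control on the log2(signal + 16) scale for the 25 member probe sets, with the 95% interval of the limma fit on 3 against 3 arrays. Orange and blue mark calls in the higher and lower direction, and open circles mark the 5 probe sets whose mean lies below the median of all probe sets. Only 201533_at of CTNNB1 passes 1 log2 unit in size.

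**Figure D3:**
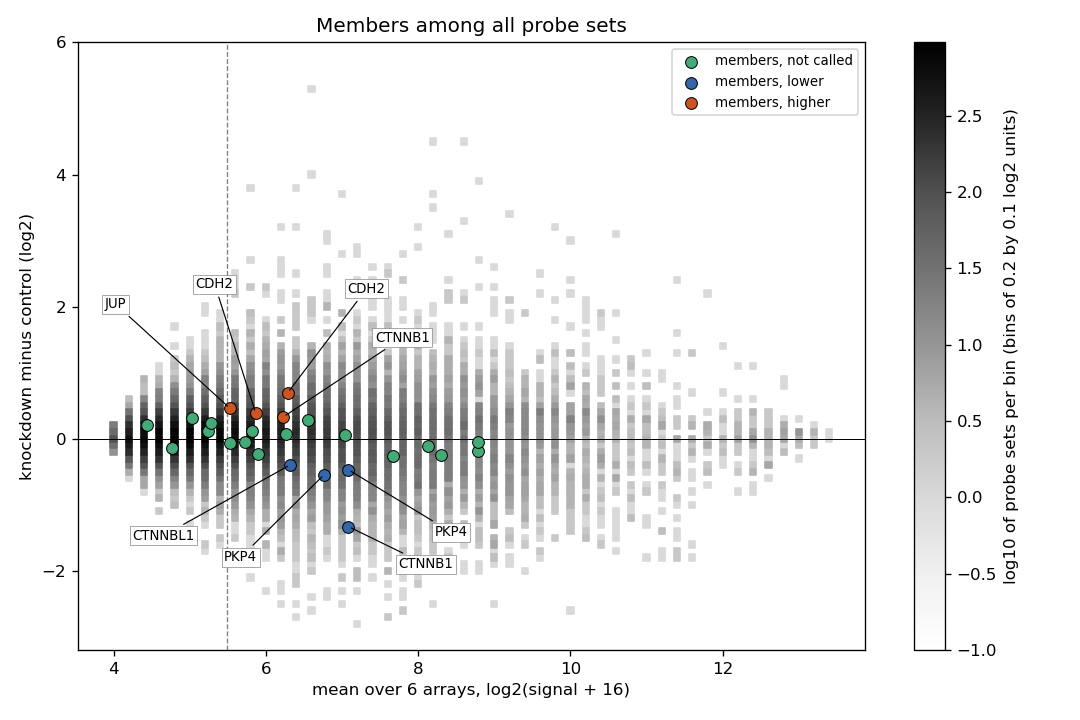
Change against mean level for all 54613 probe sets (grey squares, darker where a bin holds more probe sets) and for the 25 members (coloured points), with the dashed line at the median level. The members other than the brightest CTNNB1 probe set lie between −0.54 (PKP4 201929_s_at) and 0.69 (CDH2 203440_at). In size these 2 ends stand at percentiles 88.6 and 92.9 of all changes.

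The promoters of the called members other than CTNNB1 are printed, for the genes that rose (JUP, CDH2) and those that fell (PKP4, CTNNBL1). They come from the set of RefSeq promoter entries (GRCh38.p14) used here, which held 8 of the 10 genes and lacked CTNND1 and CDH1. Each shows the 250 bases before the first listed start of the gene, 5′ to 3′. Capitals mark the motif CCAAT or its reverse complement ATTGG.

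JUP (chr17:41786712-41786961, minus strand): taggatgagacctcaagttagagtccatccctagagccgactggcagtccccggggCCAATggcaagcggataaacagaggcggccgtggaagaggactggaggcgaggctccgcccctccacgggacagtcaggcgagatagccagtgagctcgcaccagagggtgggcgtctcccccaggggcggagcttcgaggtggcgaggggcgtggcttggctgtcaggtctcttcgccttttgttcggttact
CDH2 (chr18:28177131-28177380, minus strand): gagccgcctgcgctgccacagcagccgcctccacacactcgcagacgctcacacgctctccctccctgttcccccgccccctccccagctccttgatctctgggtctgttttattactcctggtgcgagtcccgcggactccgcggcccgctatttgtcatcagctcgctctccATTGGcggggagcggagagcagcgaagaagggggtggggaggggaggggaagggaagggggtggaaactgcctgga
PKP4 (chr2:158456702-158456951, plus strand): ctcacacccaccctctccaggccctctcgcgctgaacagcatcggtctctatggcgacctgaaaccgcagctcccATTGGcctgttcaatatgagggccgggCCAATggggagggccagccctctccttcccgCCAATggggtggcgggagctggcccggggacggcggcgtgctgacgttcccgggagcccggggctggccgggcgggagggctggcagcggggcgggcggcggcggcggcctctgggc
CTNNBL1 (chr20:37693780-37694029, plus strand): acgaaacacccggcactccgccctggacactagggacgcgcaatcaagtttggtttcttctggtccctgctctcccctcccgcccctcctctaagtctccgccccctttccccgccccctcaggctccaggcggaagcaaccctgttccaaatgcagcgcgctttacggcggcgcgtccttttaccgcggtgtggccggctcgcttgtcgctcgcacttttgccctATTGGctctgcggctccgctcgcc

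All 4 stretches hold the motif, 3 times in PKP4 and 1 time in each of the others. In these windows it does not separate genes that rose from genes that fell. This depends on the start chosen: the second listed starts of JUP and PKP4 hold no match, and that of CDH2 holds 1. Over all starts the motif was in 8 of the 14 entries of the member genes, and in 32.0% of the 35116 promoters of the same length. TATAAA or TTTATA, also searched, was in 1 of the 14 entries and in 10.7% of all promoters. These 4 stretches were rich in G and C (63.6% in JUP, 66.0% in CDH2, 73.2% in PKP4 and 64.8% in CTNNBL1, against a median of 58.0% over all promoters). The second starts of JUP and PKP4 had 66.0% and 71.6%, and that of CDH2 had 42.0%. An E-box that SNAI and ZEB repressors can bind, CAGGTG or CACCTG on either strand, was found in 1 of the 14 entries, a second start of JUP, against 17.5% of all promoters. There 2 E-boxes lie close together, shown in capitals:
JUP (chr17:41786014-41786030, minus strand): CACCTGccgagCAGGTG
The core CTTTGA or TCAAAG, part of the sequence read by TCF/LEF factors, was in 2 of the 14 entries and in 11.2% of all promoters. Both are windows of CTNNA1, which has 4 entries, and they overlap and share a match, so they are not separate promoters. These matches describe the letters in the windows only.

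The genes around the members were taken from 7 lists of other cadherins, catenins, desmosome genes and partners, each gene read by its brightest probe set and tested with limma over 12939 genes, of which 47.3% were called (25.3% higher and 22% lower). Of 111 list genes tested, 26 were higher and 29 lower, a share of 49.5%, and their median change was 0.02 against 0.05 for all genes. As a whole the lists were thus called about as often as the table.

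The list of other cadherins held 34 genes with a probe set, 19 of them too dim for the filter. Among the 15 tested, 2 were higher and 2 lower (26.7%, median 0.10). CELSR1, a large cadherin of planar polarity, rose by 0.50 on its only bright probe set (limma, adjusted p = 4.67e-04). Its 2 dim probe sets gave −0.11 and −0.12 and were not called. CDH22 rose by 0.30 (adjusted p = 0.0165), while CDH24 and CDHR2 fell by 0.32 and 0.33 (adjusted p = 0.0335 and 0.0286). CDHR2 passed the filter only through the controls, where it was higher, as its knockdown mean of 5.35 lies below it. The calls of CDH22, CDH24 and CDHR2 were each lost in several fits that left out 1 array. The CDH22 call ended without control replicate 1 or knockdown replicate 1 (adjusted p = 0.0542 and 0.172), that of CDH24 without control replicate 2 or 3 or knockdown replicate 1 or 2 (0.207, 0.0510, 0.0537 and 0.120), and that of CDHR2 without control replicate 1 or knockdown replicate 2 or 3 (0.130, 0.0778 and 0.0953).

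Of 8 other catenins and armadillo relatives tested, 1 was higher and 3 lower (50%, median −0.12). KPNA2, an importin with armadillo repeats that carries cargo into the nucleus, fell from 9.98 ± 0.14 to 8.18 ± 0.19 (SD, n = 3 each), a change of −1.80 (limma, adjusted p = 9.41e-16). ARMC1 fell by 0.44 and the desmosome plaque protein PKP2 by 0.26, though PKP2 was not called without control replicate 3 or without knockdown replicate 1, 2 or 3 (limma, adjusted p = 0.168, 0.0501, 0.0510 and 0.113), nor with the average over probe sets (−0.14, adjusted p = 0.237). ARVCF, a close relative of p120-catenin, was 1.22 higher on its brightest probe set, 217516_x_at (limma, adjusted p = 4.89e-11), but another, 1556149_at, was lower by 0.49 (limma, adjusted p = 0.0384 over all probe sets), so its direction depends on the probe set, and their average of 0.21 was not called (limma, adjusted p = 0.0617). Of 7 desmosome genes tested, 2 were higher and 1 lower (42.9%, median 0.09). The desmosomal cadherin DSC2 fell by 0.82 on its only bright probe set (limma, adjusted p = 2.66e-06), while PERP and the linker PLEC rose by 0.32 and 0.35. The dim DSC2 probe sets gave −0.03, 0.27 and −0.20, and none was called. With the average over probe sets PERP gave 0.16 and was not called (limma, adjusted p = 0.126).

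Of 21 genes that tie the junction to actin or nectins, 5 were higher and 5 lower (47.6%, median 0.02). The actin cross-linker ACTN4 and the membrane linker moesin (MSN) fell by 0.73 and 0.55, and TES and LPP rose by 0.72 and 0.43 (limma, largest adjusted p 6.06e-06, that of LPP). LPP was read by an _x_at probe set, and was not called where probe sets without _x_ or _s_ were preferred (0.23, adjusted p = 0.115). With the average over probe sets, MSN gave −0.35, TES 0.41 and LPP 0.25, all still called. Of 25 genes of turnover and trafficking, 8 were higher and 2 lower (40.0%, median 0.13). The kinase FYN rose by 0.89, the gamma-secretase subunit PSEN2 by 0.60 and the ubiquitin ligase MDM2 by 0.59, and the recycling GTPase RAB11A fell by 0.46 (limma, largest adjusted p 1.09e-04, that of RAB11A). Averaging each gene's probe sets ended the RAB11A call (−0.14, adjusted p = 0.269) and gave 0.33 for FYN, and preferring probe sets without _x_ or _s_ gave 1.79 for MDM2, both still called.

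Of 15 genes on the list of cadherin gene repressors and p120 partners, 3 were higher and 8 lower (73.3%, median −0.25). Of the SNAI, ZEB and TWIST repressors, SNAI1, SNAI2, ZEB2 and TWIST1 lay below the filter. TWIST2 was called lower, with a change of −0.79, and SNAI3 was called higher, with a change of 0.59 (limma, adjusted p = 1.19e-06 and 5.97e-05). ZEB1 gave 0.15 and was not called (adjusted p = 0.357). These repressors were named to complete the family, after their values were seen. The E proteins TCF3 and TCF4, which bind E-boxes, went opposite ways. TCF3 fell from 8.98 ± 0.10 to 8.10 ± 0.03 and TCF4 rose from 8.62 ± 0.12 to 9.72 ± 0.03 (SD, n = 3 each), changes of −0.87 and 1.10 (limma, adjusted p = 1.70e-09 and 2.45e-12). TCF4 was called higher on 7 of its 8 probe sets; TCF3 was called lower on 7 of 14 and higher on 1, and its change was −0.05 where probe sets without _x_ or _s_ were preferred (limma, adjusted p = 0.845) and −0.42, still called, with the average over probe sets. The histone deacetylase HDAC2 fell by 0.72 and the GTPase RHOA, which p120-catenin inhibits, by 0.39. The average over probe sets gave −0.44 for HDAC2, still called. Of 20 nuclear partners and partners of CTNNBIP1 and CTNNBL1, 5 were higher and 8 lower (65.0%, median −0.11). RUVBL2 and RUVBL1, ATPases that bind beta-catenin, fell by 1.08 and 0.47, the DNA-binding partner LEF1 by 0.75, and TBL1X, a co-factor of beta-catenin in transcription, rose by 0.62 (limma, largest adjusted p 1.72e-04, that of RUVBL1). TBL1X gave 0.38 with the average over probe sets and 0.30 where probe sets without _x_ or _s_ were preferred, both still called.

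**Figure D4:**
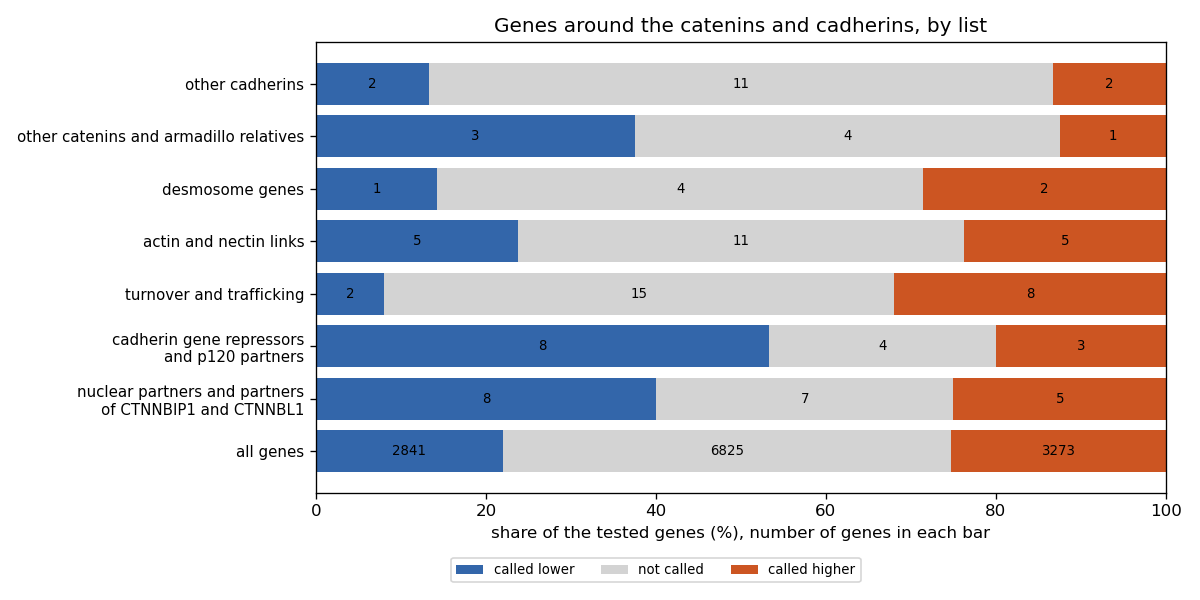
Share of the tested genes of each list that were called lower (blue), not called (grey) or called higher (orange) in the knockdown, with the number of genes written in each bar and all 12939 genes at the bottom. The list of cadherin gene repressors and p120 partners has 8 of 15 genes lower, and that of turnover and trafficking 8 of 25 higher.

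The genes whose pattern over the 6 arrays was most like that of CTNNB1 201533_at were the splicing protein gene SNRPD1, the mitotic kinase gene AURKB and the nuclear transport receptor gene XPO4, each with Pearson's r of at least 0.9997. Their changes were −1.19, −2.06 and −0.48. As a description this likeness mostly restates the difference between the groups, since 1564 of 12930 genes compared had r above 0.95, and the arrays share those groups.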

How the data were processed

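The study measured RNA of control and beta-catenin shRNA cultures of MM1.S cells on 6 Affymetrix arrays, and groups and replicate numbers came from the titles. The authors deposited log2 values per probe set. MAS5 and PLIER, methods that summarise probes, are named in the submitters' processing notes without roles. The method behind these values and the scaling between arrays are not given in the sources used here. Parts of the labels speak of embryos, against the cell line named elsewhere, and were not used. Values were taken as deposited.

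Probe sets were compared with limma 3.58.1 (lmFit, eBayes with an intensity trend; R 4.3.3), in two-sided tests, and p-values were adjusted by Benjamini-Hochberg over all 54613 non-control probe sets and a threshold of 0.05. For the lists, a gene was read by its brightest probe set of 1 symbol and tested if that mean reached 5.49, the median. Single values used exact permutation tests. Promoter motifs were counted by exact match. Precision is limited by there being 3 arrays a group. The members, lists and tests were chosen with earlier results of these data known. Named genes were all member probe sets of 1 symbol (those of CTNND1, with 2 symbols, were added so that every member is shown), up to 4 called genes per list by adjusted p, and the 3 genes most like CTNNB1; other genes are named where a count turns on them.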

Additional observations from a re-analysis of the deposited data

How the results depend on the processing

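The fall of CTNNB1 201533_at stayed called in all 18 alternatives, between −1.50 (offset of 1) and −0.98 (offset of 64). Of the member probe sets, 8 were called, against 3 without moderation, 2 in a test against a 1.2-fold change and 4 to 9 when 1 array was left out, with 4 without knockdown replicate 2. Over all probe sets, 12693 were called, against 8261 with the filter at the 75th percentile, 7094 without moderation and 5042 against a 1.2-fold change, and 9526 to 11863 when 1 array was left out. Of the list genes 55 were called, against 20 in the test against a 1.2-fold change and 45 to 58 without 1 array. No alternative called a member in the opposite direction. ARVCF turned to −0.49 when probe sets without _x_ or _s_ were preferred. The sizes of shifts between probe sets of 1 gene depended on the offset. CTNNB1 201533_at shifted against 223679_at by −1.92 with an offset of 1 and by −1.18 with 64. Against 1554411_at it shifted by −0.94 with an offset of 64. PKP4 201928_at shifted against 240379_at by −1.10 with an offset of 1 and by −0.47 with 64. Against 214874_at it shifted by −1.23 and −0.41. The shift between CTNND1 probe sets 1557944_s_at and 208862_s_at was 0.0040 and turned to −0.0165 with an offset of 64. It ran from −0.181 to 0.164 when 1 array was left out, below 0 without control replicate 1 or knockdown replicate 1. The causes of these changes were not tested. The alternatives with fewer arrays or a stricter test have less power by construction. With the replicate number as a block, 7 member probe sets were called, the call of CTNNB1 223679_at being the 1 lost (limma, adjusted p = 0.0877), with 11148 probe sets over the array and 48 list genes, and CTNNB1 201533_at kept its change of −1.33 (limma, adjusted p = 7.36e-08). Same-numbered arrays deviated together with correlations of −0.04, −0.12 and −0.22, so the numbers were not taken as pairs. Dim probe sets, 5 of the 25, limit what can be seen of CDH1, CTNNA1, CTNND1 and PKP4 there.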

Other observations

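The protocadherins, a large cadherin family best known from neurons that does not bind catenins in the classical way, were looked at in addition. Of 48 with a probe set of 1 symbol, 16 passed the filter. Of these, 3 were higher, 2 lower and 11 not called. The share called was 31.2%, against 47.3% of all genes tested, and the median change 0.10 against 0.05. PCDH1 rose from 5.11 ± 0.19 to 6.20 ± 0.08 (SD, n = 3 each), by 1.09 (limma, adjusted p = 1.50e-08). PCDH1 passed the filter of 5.49 only through the knockdown arrays, and PCDHB13 only through the controls, the group where each was higher. PCDHGA8 rose by 0.51 and the pseudogene PCDHB18P by 0.53, while PCDHAC1 and PCDHB13 fell by 0.34 and 0.33. Protocadherins of 1 cluster are near-identical in part, so a probe set can read several of them. This family was chosen after other results had been seen, and its values were not recomputed under the alternatives.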
